A study of Mus musculus with 12 samples.

Results

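The 10 genes described here encode granzymes and other proteins of cytotoxic lymphocytes: the granzymes Gzmb, Gzma and Gzmk, the pore-forming protein Prf1, the granule membrane protein Nkg7, the chemokine Ccl5, the serpins Serpinb9, Serpinb6b and Serpina3g, and Plac8. They were taken by gene name from the 32285 genes of the deposited expression table, and each had 1 row in it. RNA sequencing was performed on sorted naive CD4+ T cells from spleen and lymph nodes of C57BL/6 mice, in 12 libraries. In the Mettl3 set, 3 libraries came from untreated wild type cells at 0 h, 3 from wild type cells treated with anti-CD3/CD28 for 48 h, and 2, numbered 1 and 3, from untreated Mettl3-/- cells at 0 h. In the Nudt21 set, wild type and Nudt21-/- cells were taken at 0 h without treatment (2 libraries each). Mettl3 encodes the enzyme that methylates adenosine in RNA to m6A, and Nudt21 a cleavage factor subunit that acts where transcripts are polyadenylated. How and in which cells either gene was deleted, and the age of the mice, are not given in the sources used here. The labels do not say that libraries of a group came from separate animals, and the spread between libraries that the p-values measure may be technical.

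Cytotoxic lymphocytes, mainly CD8 T cells and natural killer (NK) cells, kill target cells by releasing granules that hold perforin, which opens the target membrane, and granzymes, the serine proteases that enter and cleave substrates there. Intracellular serpins protect the killer cell from its own proteases, with Serpinb9 as the inhibitor of granzyme B and Serpina3g as an inhibitor of lysosomal cathepsins. Nkg7 sits in the granule membrane and takes part in granule release, and Ccl5 is a chemokine stored and secreted by effector and memory T cells. Naive CD4 T cells are not killer cells, and some of these genes are induced when CD4 T cells are activated or become effector cells.

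The promoter sequences of 4 members whose levels followed different courses over the groups follow, as the 250 bases before RefSeq's start of each gene (GRCm38.p6, strand of the gene, 5′ to 3′). Capitals mark matches to 3 motifs that were searched on both strands: RUNX (TGTGGT), T-box (GGTGTGA) and STAT (TTCNNNGAA). RefSeq's start of Gzmb lies 74 bases upstream of the outermost start of the gene in the GENCODE annotation, that of Nkg7 lies 65 and that of Prf1 3 bases inside the annotated gene, and both annotations give the same start for Gzma.

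Gzmb, chr14:56262335-56262584, minus strand: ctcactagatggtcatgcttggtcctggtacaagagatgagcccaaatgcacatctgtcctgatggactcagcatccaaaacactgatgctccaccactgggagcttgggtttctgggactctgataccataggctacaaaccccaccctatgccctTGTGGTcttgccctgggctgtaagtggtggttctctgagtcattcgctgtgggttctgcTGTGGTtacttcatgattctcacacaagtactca

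Gzma, chr13:113100982-113101231, minus strand: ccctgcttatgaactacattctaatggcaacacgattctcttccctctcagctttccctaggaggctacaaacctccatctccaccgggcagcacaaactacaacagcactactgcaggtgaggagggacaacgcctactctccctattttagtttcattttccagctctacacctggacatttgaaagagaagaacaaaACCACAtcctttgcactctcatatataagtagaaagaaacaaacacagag

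Prf1, chr10:61297586-61297835, plus strand: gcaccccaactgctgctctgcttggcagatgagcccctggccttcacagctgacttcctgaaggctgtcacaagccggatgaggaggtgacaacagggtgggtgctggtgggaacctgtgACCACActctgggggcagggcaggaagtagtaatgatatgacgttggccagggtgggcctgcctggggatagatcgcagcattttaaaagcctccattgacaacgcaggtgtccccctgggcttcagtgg

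Nkg7, chr7:43436888-43437137, plus strand: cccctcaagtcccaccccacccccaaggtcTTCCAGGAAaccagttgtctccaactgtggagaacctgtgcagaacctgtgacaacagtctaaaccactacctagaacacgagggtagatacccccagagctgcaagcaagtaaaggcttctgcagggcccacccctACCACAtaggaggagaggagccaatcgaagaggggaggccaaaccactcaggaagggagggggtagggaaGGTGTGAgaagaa

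The RUNX letters begin 93 and 34 bases before the start of Gzmb, 50 before that of Gzma, 130 before that of Prf1 and 83 before that of Nkg7. Nkg7 also has the T-box letters 13 bases and the STAT letters 220 bases before its start, the former within the annotated gene. The RefSeq table held a promoter for 9 of the 10 members. The RUNX letters were in 6 of these 9 (Gzmb, Gzma, Prf1, Nkg7, Serpina3g and Plac8), against 14.0% of 32851 promoters of the same length, the T-box letters in 3 (Gzmk, Nkg7 and Plac8), against 3.33%, and the STAT letters in 2 (Nkg7 and Serpina3g), against 7.02%. These counts use RefSeq's starts also where GENCODE differs: the start of Serpina3g lies 98 bases upstream of GENCODE's, and those of Gzmk and Serpinb9 lie 44943 and 1291 bases inside the annotated gene. Plac8 had 2 RefSeq promoters and was counted because 1 of them matched, whereas the percentages count single promoters. Its other promoter, with a start 9149 bases inside the annotated gene, held no match. The members were chosen by function and earlier results, so these shares are a description, and a match is not a bound site.

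The labels of the knockouts were checked on the targeted genes. Mettl3 was at 5.35 and 6.45 FPKM (fragments per kilobase, scaled to library size) in its own knockouts and between 15.1 and 34.4 FPKM in the other 10 libraries, and Nudt21 was at 7.57 and 6.69 FPKM in its knockouts and between 16.9 and 32.5 FPKM elsewhere. Cd4 was at 167 to 287 FPKM in all 12 libraries and Cd8a at no more than 1.74 FPKM. Cd8b1, which encodes the other chain of the CD8 receptor, was at 6.73 to 11.3 FPKM in the 8 wild type libraries and at 19 to 21.5 FPKM in the 4 knockout libraries. The library Mettl3 knockout 3 stood apart from all others by RNA of other cells: all 21 markers of NK cells, 19 of B and plasma cells, 14 of neutrophils and 7 of mast cells and basophils lay above every resting wild type of its set. The basophil proteases Mcpt8 and Prss34 were at 237 and 302 FPKM there and at no more than 1.84 FPKM in every other library. For the counts of markers above the wild types, no share over all genes is given. The result of each tested member in Mettl3 knockouts is therefore given with and without that library. The Nudt21 knockouts also carried more RNA of other cells than their wild types (values below). In bulk RNA, more or fewer cells of a type and more or less RNA per cell cannot be told apart.

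**Figure D1:**
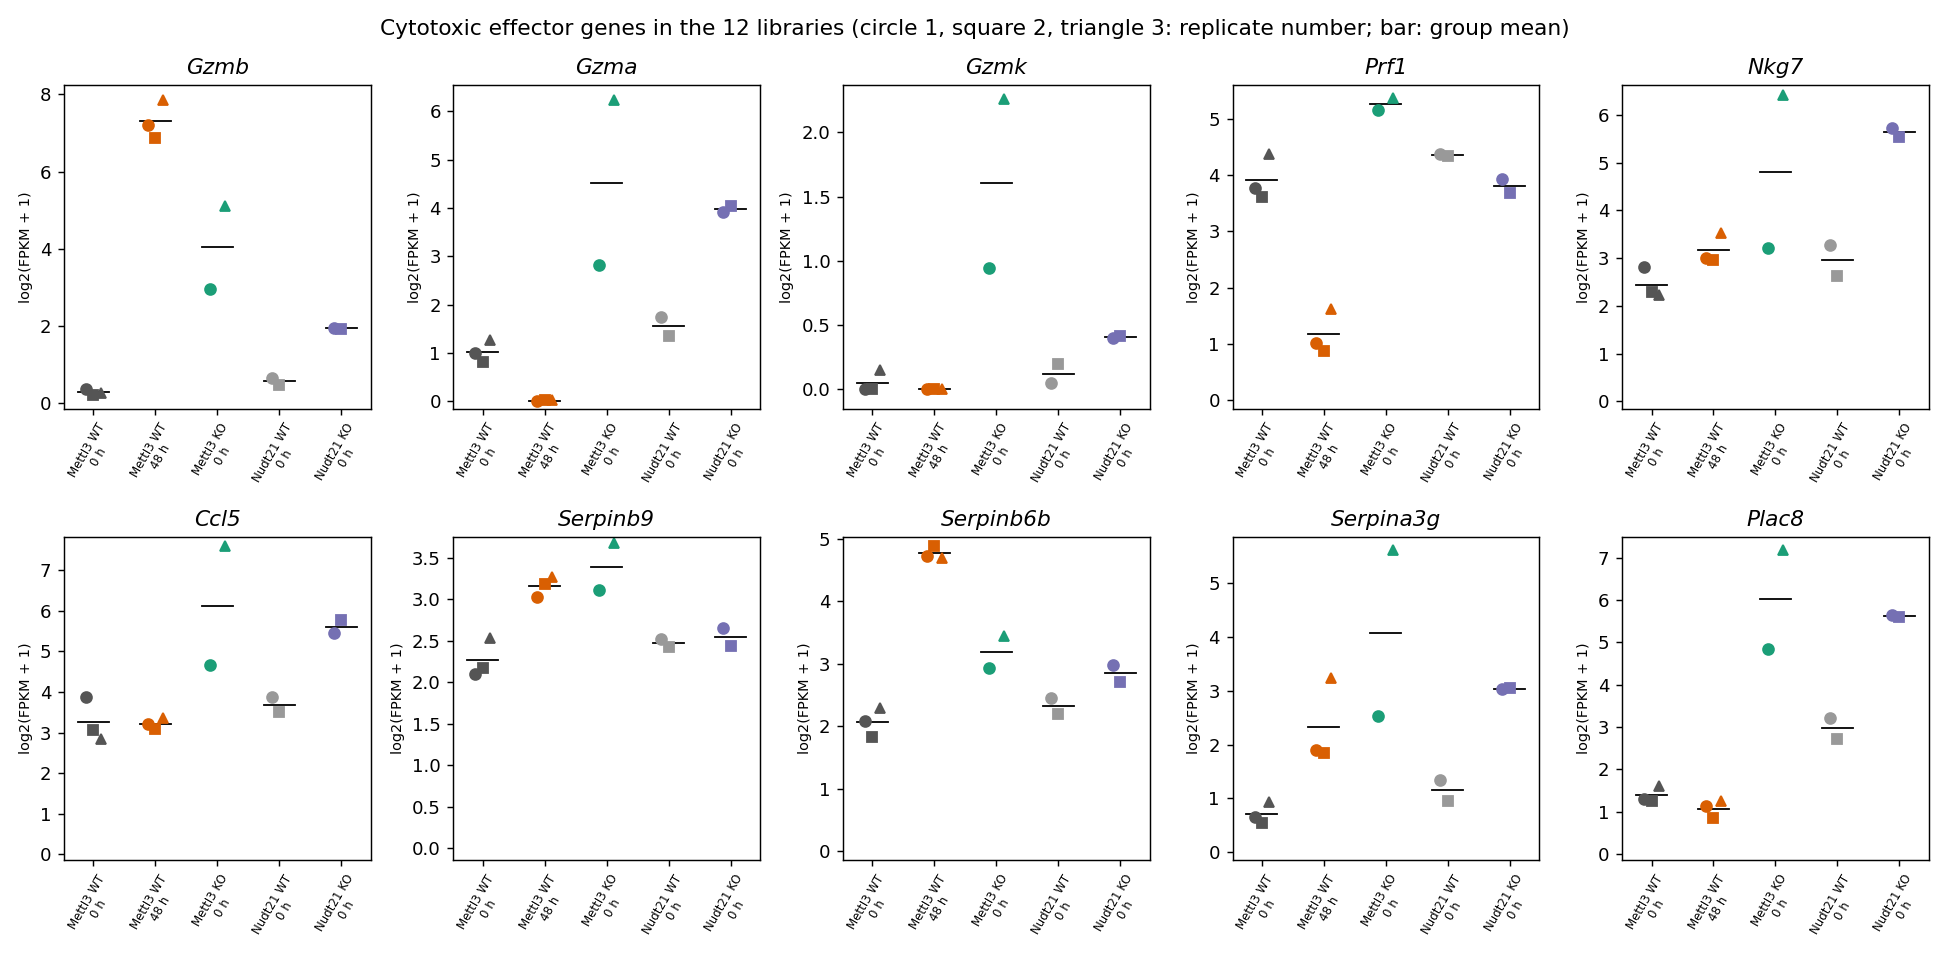
Level of each of the 10 genes in the 12 libraries, as log2(FPKM + 1), by group; point shapes give the replicate number and bars the group mean. Gzmb is at 115 to 232 FPKM in the 48 h libraries, Prf1 at 0.843 to 2.07 FPKM, and Mettl3 knockout 3 (triangle) has the higher value of the Mettl3 knockout pair for every gene.

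The granzymes were low in resting wild type cells and parted on activation. Gzmb, the granzyme that cleaves after aspartate and starts apoptosis, was at 0.272, 0.157 and 0.192 FPKM in wild types 1, 2 and 3 of the Mettl3 set at 0 h. After 48 h it was at 146, 115 and 232 FPKM, that is 0.207 ± 0.0592 (SD, n = 3) against 164 ± 60.6 FPKM (SD, n = 3). All 3 activated libraries thus lay far above all resting ones, and Gzmb rose by 7.04 on the log2(FPKM + 1) scale on which all tests were made (SE 0.45, limma adjusted p = 2.42e-07). Gzma, a granzyme that cleaves after basic residues, was at 0.991, 0.755 and 1.41 FPKM at 0 h and at 0, 0.0134 and 0.0138 FPKM at 48 h. Its groups did not overlap, with activated cells lower, but the difference of -1.01 (SE 0.65) did not pass the test (limma adjusted p = 0.178). The spread in that test included the Mettl3 knockouts: without knockout 1 or without knockout 3 the adjusted p was 3.54e-05 and 3.56e-05, and with a pseudocount of 0.1 FPKM the difference was -3.36 (adjusted p = 0.00117). Gzmk, a granzyme of memory T cells, was listed at 0 in all activated libraries and at 0, 0 and 0.112 FPKM in resting ones. It reached 1 FPKM in 1 of the 12 libraries and so was not tested.

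Perforin and the granule gene Nkg7 also parted. Prf1 was at 12.6, 11.2 and 19.7 FPKM at 0 h and at 1.02, 0.843 and 2.07 FPKM at 48 h. It fell by 2.75 on the log2 scale (SE 0.22, limma adjusted p = 1.36e-06), so that the granzyme that rose and the pore former moved in opposite directions. Nkg7 was at 6.05, 3.88 and 3.69 FPKM before and at 7.04, 6.78 and 10.5 FPKM after activation, and the difference of 0.72 did not pass (limma adjusted p = 0.322; 0.00984 without Mettl3 knockout 3 and 0.00977 without knockout 1). Ccl5 was at 13.7, 7.3 and 6.12 FPKM and then at 8.2, 7.56 and 9.32 FPKM, with overlapping groups and a difference of -0.03 (limma adjusted p = 0.967).

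The inhibitors were higher in activated cells. Serpinb6b, an intracellular serpin of the same chromosome 13 cluster as Serpinb9, was at 3.23, 2.53 and 3.92 FPKM at 0 h and at 25.6, 28.5 and 25 FPKM at 48 h, a rise of 2.70 (SE 0.16, limma adjusted p = 1.39e-07). Serpinb9 was at 3.28, 3.52 and 4.79 FPKM and then at 7.19, 8.13 and 8.65 FPKM, a rise of 0.90 (SE 0.16, limma adjusted p = 0.000415). Serpina3g was at 0.577, 0.455 and 0.918 FPKM and then at 2.74, 2.59 and 8.41 FPKM, with the value of wild type 3 well above those of its 2 partners. Its rise of 1.61 (SE 0.65, limma adjusted p = 0.0438) was lost when any of 9 single libraries was left out, among them each resting wild type, wild types 1 and 3 at 48 h and each Nudt21 library (adjusted p from 0.0538 to 0.159). Plac8, a small cysteine-rich protein of lymphoid and myeloid cells, was at 1.47, 1.37 and 2.03 FPKM and then at 1.18, 0.808 and 1.37 FPKM, a difference of -0.31 (limma adjusted p = 0.561).

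With activation, 4 of the 9 tested members thus rose and 1 fell, while 43.6% of all 12511 tested genes rose and 34.9% fell, so the count of members lies near the background. The median difference of the members was 0.72, against 0.07 over all tested genes. The summed FPKM of the 21 NK markers was 9.75, 8.97 and 7.75 at 0 h and 1.15, 1.06 and 1.78 at 48 h, and no tested marker of NK, gamma-delta T, myeloid, neutrophil or erythroid cells rose, while 2 of 17 tested B and plasma cell markers did. The gains of Gzmb and the serpins were thus measured in libraries with less NK marker RNA than at 0 h. Lower marker RNA was not limited to other cells. The 13 CD4 T cell markers summed to 4391 to 5268 FPKM at 0 h and to 2630 to 2767 FPKM at 48 h, and 11 fell and 1 rose.

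In Mettl3-/- cells at 0 h all 9 tested members rose, where 16.8% of all tested genes rose and 12% fell, with a median difference of 2.87 against 0.04 over all tested genes. Without Mettl3 knockout 3, 8 of the 9 rose (13.1% of all tested genes rose and 8.56% fell), with a median of 1.41 against 0.01. That fit assumes that the lone knockout library varies like the libraries of the other groups. All 10 members, Gzmk included, lay above every resting wild type of the Mettl3 set in both knockout libraries. No share over all genes is given for that count, so it has no background to be read against. The median difference of the members from the wild type mean was 1.32 on the log2 scale in knockout 1 and 4.16 in knockout 3. This comparison shares its wild types with that of activation.

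Among the granzymes, Gzmb was at 6.78 FPKM in knockout 1 and at 33.6 FPKM in knockout 3, both above the wild types by far. It rose by 3.77 (SE 0.50, limma adjusted p = 0.000849) and by 2.69 without knockout 3 (SE 0.28, limma adjusted p = 0.000332). Even so, both libraries lay below all activated wild types. Gzma was at 6.03 and 74.1 FPKM and rose by 3.50 (SE 0.73, limma adjusted p = 0.00672), or by 1.79 without knockout 3 (limma adjusted p = 0.000303). Gzmk, untested, was at 0.93 and 3.78 FPKM, against no more than 0.112 FPKM in the wild types.

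Prf1 was at 34.5 and 40.6 FPKM, similar levels in both knockout libraries. It rose by 1.35 (SE 0.25, limma adjusted p = 0.00395), and by 1.23 without knockout 3 (limma adjusted p = 0.0196). Nkg7 was at 8.23 and 84.5 FPKM, so its rise of 2.37 (limma adjusted p = 0.0327) rested on knockout 3. Without that library the difference was 0.76 (limma adjusted p = 0.103), and leaving out wild type 1, 2 or 3 at 0 h also ended the call (0.0574, 0.0751 and 0.0726). Ccl5 was at 24.4 and 192 FPKM and rose by 2.87 (limma adjusted p = 0.0108), or by 1.41 without knockout 3 (limma adjusted p = 0.0142).

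The serpins rose too. Serpinb9 was at 7.65 and 11.8 FPKM, a rise of 1.12 (limma adjusted p = 0.00188; 0.84 and adjusted p = 0.00712 without knockout 3). Serpinb6b was at 6.62 and 9.85 FPKM and likewise rose by 1.12 (limma adjusted p = 0.002; 0.86 and adjusted p = 0.00923 without knockout 3). The Serpinb9 levels overlapped those of activated wild types, whereas for Serpinb6b all activated wild types were higher. Serpina3g was at 4.76 and 47.7 FPKM and rose by 3.35 (limma adjusted p = 0.00853), or by 1.81 without knockout 3 (limma adjusted p = 0.0179). Plac8 was at 27.8 and 144 FPKM, against 1.37 to 2.03 FPKM in the wild types. It had the largest difference of the 9 tested members in this comparison, 4.63 (SE 0.51, limma adjusted p = 0.000351), and 3.47 without knockout 3 (SE 0.21, limma adjusted p = 3.18e-05). When the test used only the Mettl3 groups at 0 h, 4 of the 9 members rose (Gzmb, Prf1, Serpinb6b and Plac8), where 4.28% of all tested genes rose and 2.19% fell.

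**Figure D2:**
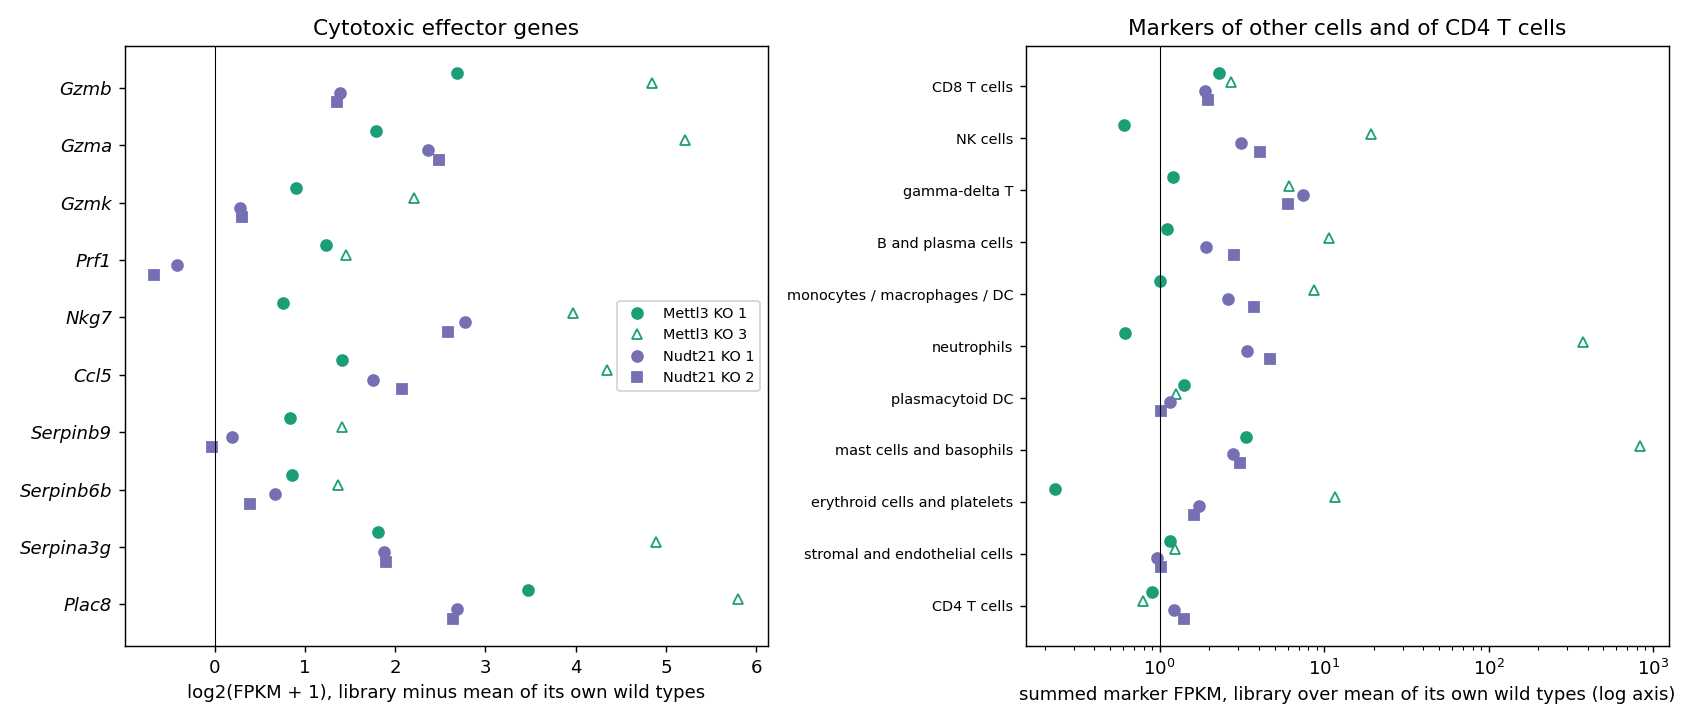
Left, log2(FPKM + 1) of each gene in each knockout library minus the mean of the wild types of its set at 0 h; right, summed FPKM of each marker list over that mean on a log axis. In Mettl3 knockout 1 (filled green circle) all 10 genes lie above 0 while the sum of NK markers is 0.605 of the wild type mean; in Mettl3 knockout 3 (open triangle) that sum is 19.3 times the wild type mean.

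The members rose in the Mettl3 knockout libraries beside very different levels of marker RNA. In knockout 1 the 21 NK markers summed to 5.34 FPKM, or 0.605 of the wild type mean, with 3 markers above and 9 below all resting wild types, the libraries used for comparison here. The NK receptor Ncr1 was at 0.189 FPKM, against 0.0946 to 0.198 FPKM in the wild types, and the delta chain constant gene Trdc at 5.93 FPKM, against 4.97 to 6.01 FPKM. Of the 19 B and plasma cell markers 2 lay above and 14 below all wild types, at a sum of 1.11 times the wild type mean, and neutrophil and erythroid marker sums were 0.617 and 0.232 of the wild type mean. The gains of all 10 members in that library were thus measured with NK, neutrophil and erythroid marker sums below the wild type mean and a gamma-delta T cell sum of 1.2 times it. Of the 7 markers of mast cells and basophils 6 lay above all wild types, at a sum of 2.75 FPKM or 3.36 times the wild type mean. The sum of 7 plasmacytoid dendritic cell markers was 124 FPKM, or 1.41 times that mean, with 2 markers above and 4 below all wild types, and the stromal and endothelial sum was 1.16 times it. The sum of myeloid markers was 1.01 times the wild type mean. The 13 CD4 T cell markers summed to 0.899 of it, with 2 above and 8 below all wild types. The sum of the 2 CD8 markers was 2.29 times the wild type mean. Of these Cd8b1 was at 19 FPKM, against 7.32 to 8.52 FPKM in the wild types, and Cd8a at 0.1 FPKM, below all of them. Cd8b1 rose in Mettl3 knockouts by 1.24 (limma adjusted p = 0.000131; 1.16 and 0.000495 without knockout 3). In knockout 3 the sums were 19.3 times the wild type mean for NK, 6.1 for gamma-delta T, 10.7 for B and plasma, 8.63 for myeloid, 377 for neutrophil and 831 for mast cell and basophil markers. Much of the NK marker sum of knockout 3, 171 FPKM, came from Tyrobp (45 FPKM) and Fcer1g (46.7 FPKM), and Ncr1 was at 9.01 FPKM. No share over all genes is given for the counts of markers above or below the wild types. The part of other cells in the larger member values of knockout 3 was not tested.

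**Figure D3:**
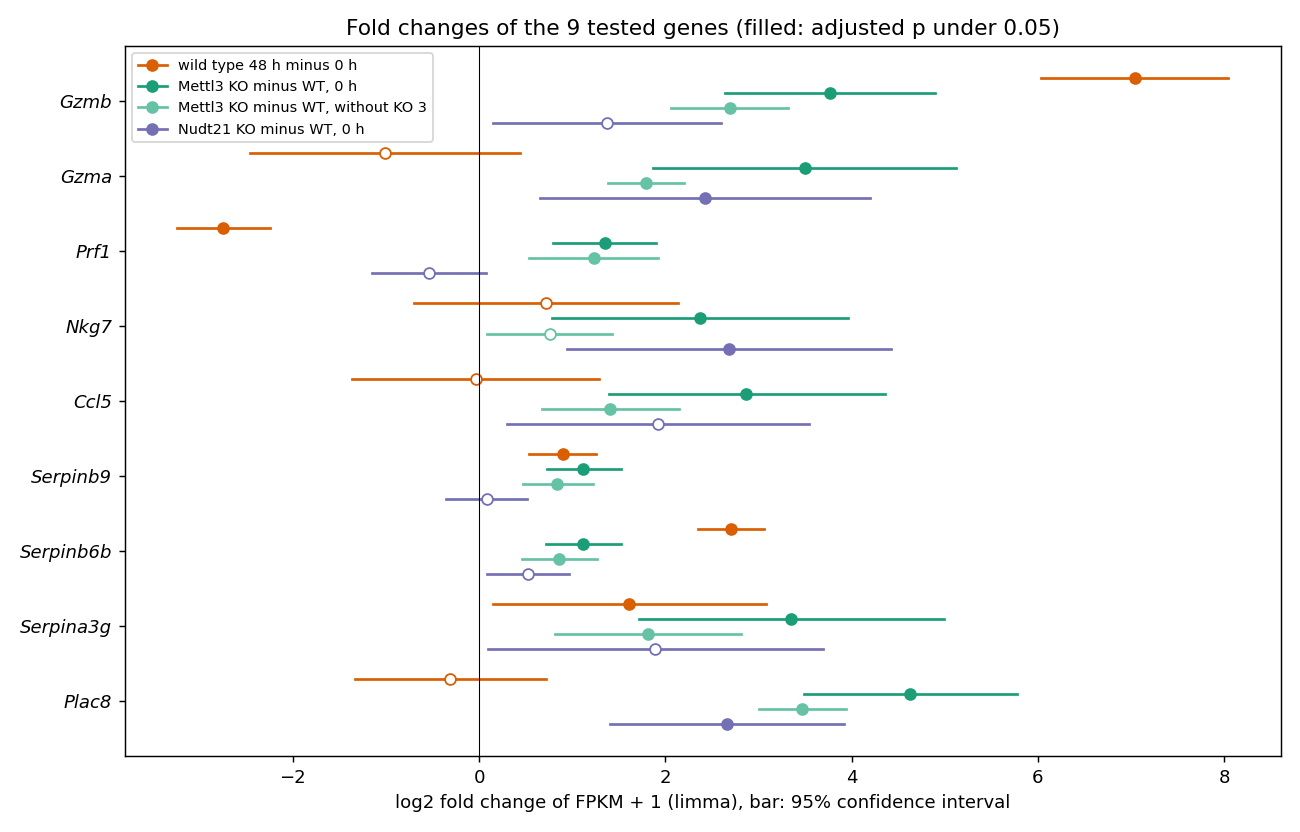
Log2 fold change of FPKM + 1 of the 9 tested genes with 95% confidence intervals from limma, for activation, for Mettl3 knockouts with and without knockout 3, and for Nudt21 knockouts; filled points passed an adjusted p of 0.05. In Mettl3 knockouts 9 of 9 are filled, without knockout 3 the point of Nkg7 (0.76) is open, and Prf1 lies at -2.75 with activation.

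In Nudt21-/- cells at 0 h, 3 of the 9 tested members rose (Nkg7, Gzma and Plac8) and none fell, against 8.73% and 19% of all tested genes. The median difference of the members was 1.89, against -0.05 over all tested genes. Without Mettl3 knockout 3, whose distance from knockout 1 enters the shared spread, 7 rose (15.1% of all tested genes rose and 22.8% fell): Gzmb, Ccl5, Serpinb6b and Serpina3g were added, at the same differences. Leaving out Mettl3 knockout 1 in its place also gave 7, where 15.1% of all tested genes rose and 22.7% fell.

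Nkg7 was at 8.73 and 5.19 FPKM in wild types 1 and 2 of the Nudt21 set and at 52.1 and 45.7 FPKM in knockouts 1 and 2, and rose by 2.68 (SE 0.78, limma adjusted p = 0.03). Gzma was at 2.37 and 1.55 FPKM in wild types and at 14 and 15.5 FPKM in knockouts, and rose by 2.43 (SE 0.79, limma adjusted p = 0.047). Plac8 was at 8.35 and 5.57 FPKM and then at 49.4 and 47.8 FPKM, and rose by 2.66 (SE 0.56, limma adjusted p = 0.00806). The differences were the same without Mettl3 knockout 3, and the limma adjusted p was then 9.87e-05 for Nkg7, 1.37e-05 for Gzma and 1.69e-05 for Plac8. With both Mettl3 knockouts in the fit, the calls were lost on leaving out single libraries, while the differences changed little. In the leave-out fits that lost a call, the difference was 2.36 to 3.01 for Nkg7, 2.22 to 2.63 for Gzma and 2.41 and 2.69 for Plac8. That of Nkg7 was lost without wild type 1 or 2 or knockout 1 or 2 (limma adjusted p = 0.0791, 0.159, 0.102 and 0.116), and that of Plac8 without wild type 2 or knockout 2 (0.0628 and 0.0513). The call on Gzma was lost without any single library other than the Mettl3 knockouts (adjusted p from 0.0617 to 0.192) and with quantile scaling (0.0563).

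The other members moved by smaller or less certain amounts. Gzmb was at 0.569 and 0.38 FPKM in wild types and at 2.84 and 2.78 FPKM in knockouts, a difference of 1.37 that did not pass (limma adjusted p = 0.0902; 0.00222 without Mettl3 knockout 3). Ccl5 was at 13.8 and 10.3 FPKM and then at 42.9 and 53.8 FPKM, a difference of 1.92 (limma adjusted p = 0.0753; 0.000841 without that library). Serpina3g was at 1.55 and 0.93 FPKM and then at 7.15 and 7.3 FPKM, a difference of 1.89 (limma adjusted p = 0.107; 0.00427 without it). For none of these 3 genes did knockouts and wild types overlap. With so few libraries in each group that is not a test, and no share over all genes is given for it. Serpinb6b was at 4.45 and 3.57 FPKM in wild types and 6.93 and 5.53 FPKM in knockouts (0.53, limma adjusted p = 0.0694; 0.0248 without Mettl3 knockout 3). With quantile or median-ratio scaling Serpinb6b also passed (0.0337 and 0.0455). Gzmk was at 0.0346 and 0.144 FPKM in wild types and at 0.321 and 0.337 FPKM in knockouts.

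Prf1 and Serpinb9 were not higher. Prf1 was at 19.7 and 19.2 FPKM in wild types and at 14.3 and 11.8 FPKM in knockouts, lower in both without passing the test (-0.54, SE 0.27, limma adjusted p = 0.166). It passed when only the Nudt21 groups were fitted (0.0146). Serpinb9 was at 4.73 and 4.38 FPKM in wild types and at 5.32 and 4.44 FPKM in knockouts, an overlap between the groups (0.08, 95% confidence interval -0.35 to 0.51, limma adjusted p = 0.792).

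These values moved beside marker RNA of several other cells. The NK markers summed to 23.2 and 14.4 FPKM in wild types and to 58.9 and 76.5 FPKM in knockouts, and 20 of 21 lay above both wild types in each knockout. Much of the knockout sums came from Tyrobp (20.7 and 27.7 FPKM) and Fcer1g (16.6 and 19.6 FPKM). The NK receptor Ncr1 was at 0.408 and 0.352 FPKM in wild types and at 2.05 and 2.85 FPKM in knockouts. Of the 11 tested, none passed (10 rose without Mettl3 knockout 3). Trdc was at 5.69 and 4.78 FPKM in wild types and at 38.3 and 31.3 FPKM in knockouts, and all 6 tested gamma-delta and innate-like T cell markers rose. All 19 B and plasma cell markers, 16 myeloid markers and 14 neutrophil markers were above both wild types in each knockout. The sum of the 13 CD4 T cell markers was also higher, at 1.23 and 1.4 times the wild type mean in knockouts 1 and 2. Of these 13, 10 and 11 lay above both wild types and 3 and 2 below. No share over all genes is given for these counts of markers above or below the wild types. Cd8b1 was at 11.3 and 9.07 FPKM in wild types and at 20.8 and 21.1 FPKM in knockouts, a rise of 0.98 (limma adjusted p = 0.000757), while Cd8a overlapped between the groups. The part of other cells in the gains of Nkg7, Gzma and Plac8 was not tested.

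**Figure D4:**
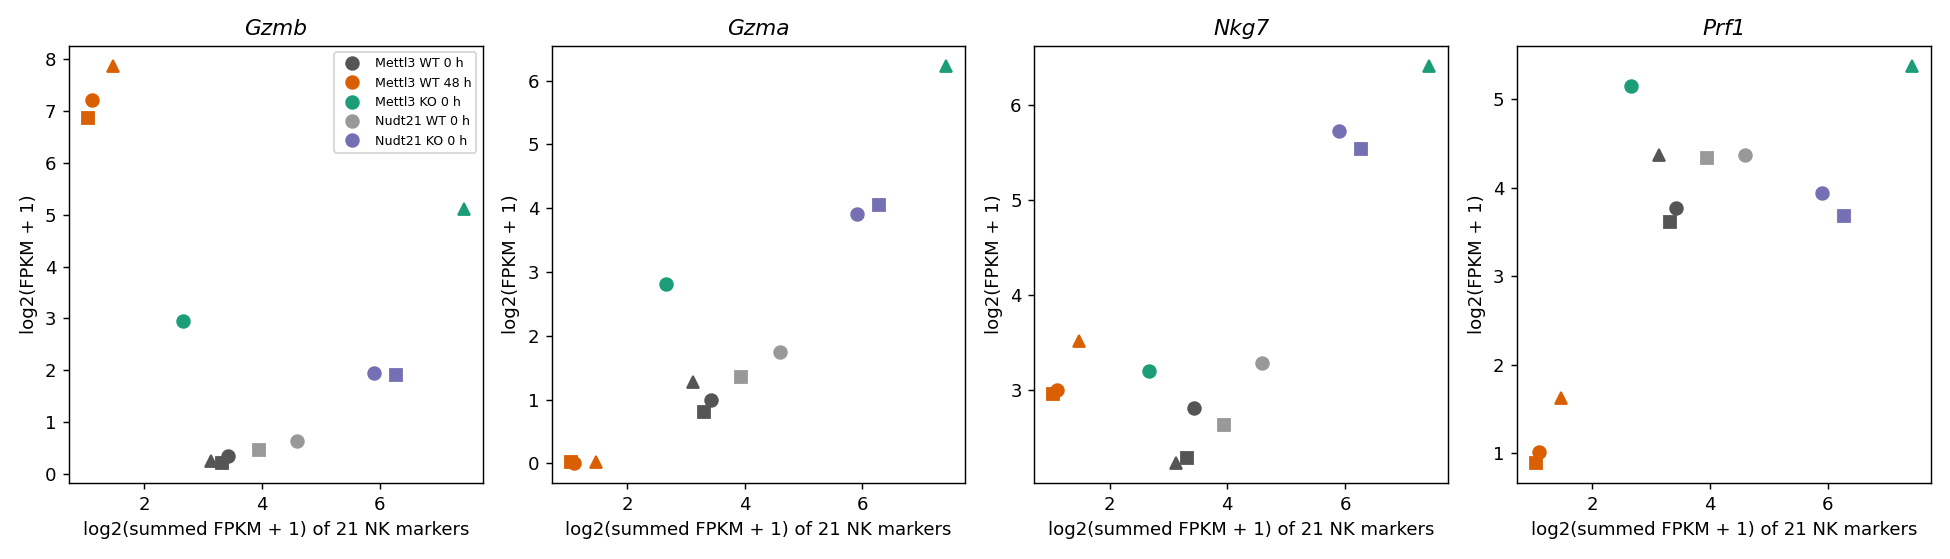
Level of Gzmb, Gzma, Nkg7 and Prf1 against the summed level of 21 NK markers, both as log2 of FPKM plus 1, with 1 point for each of the 12 libraries, coloured by group and shaped by replicate number as circle 1, square 2 and triangle 3. Nkg7 is at 45.7 to 84.5 FPKM in the 3 knockout libraries with the most NK marker RNA, whereas Gzmb is at 115 to 232 FPKM in the 48 h libraries, where the marker sum is 1.06 to 1.78 FPKM. In those 3 knockout libraries much of the marker sum comes from Tyrobp and Fcer1g.

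The changes in the knockouts differed for Gzmb, Prf1 and Serpinb9, each smaller or lower with loss of Nudt21 than with loss of Mettl3. For Prf1 the Nudt21 effect minus the Mettl3 effect was -1.89 (SE 0.37, limma adjusted p = 0.00662), with Prf1 higher in 2 of 2 Mettl3 knockouts and lower in 2 of 2 Nudt21 knockouts than all of their own wild types. For Serpinb9 it was -1.05 (SE 0.26, limma adjusted p = 0.0177) and for Gzmb -2.39 (SE 0.74, limma adjusted p = 0.0414). These 3 of 9 compare with 17.8% of all tested genes lower and 7.44% higher in this difference. Without Mettl3 knockout 3, Prf1 (-1.77, adjusted p = 0.0109), Gzmb (-1.31, adjusted p = 0.0263) and Serpinb9 (-0.76, adjusted p = 0.0284) were still lower by limma, and Nkg7 became higher (1.92, adjusted p = 0.00691), where 18.3% and 11.3% of all tested genes were lower and higher. Without Mettl3 knockout 1, which leaves knockout 3 with its RNA of other cells as the lone Mettl3 knockout, all 9 were lower, where 25.9% of all tested genes were lower and 9.31% higher. The calls on Serpinb9 and Gzmb were lost on leaving out other single libraries: Serpinb9 without Nudt21 wild type 1 or Nudt21 knockout 2 (0.0634 and 0.0725), and Gzmb without any of 9 libraries, which were the 3 resting wild types of the Mettl3 set, wild types 1 and 2 at 48 h and all 4 Nudt21 libraries (0.0513 to 0.115).

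The wild types of the sets were compared because each knockout is read against its own. Of the 9 tested members Plac8 was higher in the Nudt21 set (6.96 ± 1.97 FPKM, SD, n = 2, against 1.62 ± 0.354 FPKM, SD, n = 3), by 1.59 with limma (adjusted p = 0.0467), and the call was lost without any single library other than the Mettl3 knockouts (adjusted p from 0.0646 to 0.259). In the same comparison 18.7% of all tested genes were higher and 7.31% lower. The median member difference was 0.44, against 0.08 over all tested genes. Markers of other cells were also higher there, with 10 of 17 tested B and plasma cell markers and 5 of 7 erythroid markers past the test, and their part in the level of Plac8 was not tested.

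Set in order of level, Gzmb was lowest in Mettl3-set wild types, then Nudt21-set wild types, Nudt21 knockouts, Mettl3 knockouts and activated wild types. Neighbouring groups did not overlap, but no share over all genes is given for such an order. Both resting wild type groups lay below 1 FPKM, and their difference of 0.29 did not pass (limma adjusted p = 0.737). The step from Nudt21-set wild types to Nudt21 knockouts did not pass either with all libraries (limma adjusted p = 0.0902). Prf1 was lowest in activated wild types and highest in Mettl3 knockouts, while resting Mettl3-set wild types (11.2 to 19.7 FPKM) overlapped both Nudt21 groups. For Gzma, Nkg7, Ccl5 and Plac8 the Nudt21 knockout values lay between those of the 2 Mettl3 knockouts, so these groups were not separated at the top of the order. The resting wild types of both sets and the activated wild types overlapped in a chain from 3.69 to 10.5 FPKM for Nkg7 and from 6.12 to 13.8 FPKM for Ccl5. Mettl3 knockout 1 lay within that chain for Nkg7 (8.23 FPKM), whereas all knockouts lay above it for Ccl5. Serpinb9 formed a low set of overlapping groups (3.28 to 5.32 FPKM) and a high set of activated wild types and Mettl3 knockouts (7.19 to 11.8 FPKM). Serpinb6b was highest in activated wild types, and the knockouts of Nudt21 and Mettl3 overlapped below them (5.53 to 9.85 FPKM). Serpina3g was lowest in resting wild types (0.455 to 1.55 FPKM), and its activated and knockout groups overlapped.

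Other genes of the granule pathway moved in both directions. Of 24 tested genes of the granule and killing machinery, 9 rose and 1 fell in Mettl3 knockouts, 5 rose and 2 fell in Nudt21 knockouts, and 8 rose and 6 fell with activation. Over all tested genes, 16.8% rose and 12% fell in Mettl3 knockouts, 8.73% and 19% in Nudt21 knockouts and 43.6% and 34.9% with activation, so that the share of these genes that rose with activation lay below that of all genes. Without Mettl3 knockout 3, 4 rose and 1 fell in Mettl3 knockouts (13.1% and 8.56% of all tested genes) and 9 rose and 3 fell in Nudt21 knockouts (15.1% and 22.8%). The syntaxin Stx11, which acts in granule fusion, was at 0.467 to 0.672 FPKM in resting wild types of the Mettl3 set, 1.63 and 4.16 FPKM in the Mettl3 knockouts and 13.1 to 16.3 FPKM at 48 h. It rose with activation (3.33, limma adjusted p = 1.87e-07), in Mettl3 knockouts (1.24, adjusted p = 0.00386; 0.75 and 0.00394 without knockout 3) and in Nudt21 knockouts (1.07, adjusted p = 0.0123). Sytl2, which tethers granules to the membrane, fell in the same comparisons, by 2.90, 0.95 and 0.61 (limma adjusted p = 1.12e-07, 0.00501 and 0.0492). In Mettl3 knockouts without knockout 3, Sytl2 fell by 1.32 (limma adjusted p = 0.000287).

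Ctsw, a cathepsin of cytotoxic lymphocytes, was at 35.7 to 40.2 FPKM in resting wild types of the Mettl3 set and at 1.94 to 3.97 FPKM at 48 h. With activation it fell by 3.41 (limma adjusted p = 7.88e-08). In knockouts it rose by 0.79 (Mettl3, limma adjusted p = 0.019; 0.53 and 0.122 without knockout 3) and 0.78 (Nudt21, limma adjusted p = 0.0301). Cst7, the cystatin that inhibits granule cathepsins, rose with activation by 2.08 (limma adjusted p = 0.00187), and Ap3b1, an adaptor subunit of granule sorting, by 1.27 (limma adjusted p = 2.46e-08). Srgn, the proteoglycan that packs granzymes, rose in all 3 comparisons, by 0.76 with activation, 0.73 in Mettl3 and 0.39 in Nudt21 knockouts (limma adjusted p = 7.11e-05, 0.00204 and 0.0479; in Mettl3 knockouts 0.51 and 0.00495 without knockout 3). Lyst, a regulator of lysosome size, rose by 0.91 in Mettl3 knockouts (limma adjusted p = 0.0213; 0.56 and 0.142 without knockout 3). The death ligand Fasl fell by 0.97 and the lysosomal membrane protein Lamp2 rose by 0.89 in Nudt21 knockouts (limma adjusted p = 0.0137 and 0.0147). Lamp2 also rose in Mettl3 knockouts (0.63, limma adjusted p = 0.0388), by 0.2 without knockout 3. Its difference of the knockout effects did not pass (0.26, limma adjusted p = 0.549), and was 0.68 without knockout 3. Ctsc, which activates granzyme precursors, passed in none of the 5 comparisons at levels of 21.8 to 37.4 FPKM. It passed without Mettl3 knockout 3 in Nudt21 knockouts (0.47, limma adjusted p = 0.0068) and in the difference of the knockout effects (0.55, adjusted p = 0.0286).

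Of 22 other intracellular and inhibitor serpins listed, 5 were expressed enough to test, and Serpina3f, a close paralogue of Serpina3g, rose with activation (1.52, limma adjusted p = 0.0357) and in Mettl3 knockouts (2.10, adjusted p = 0.0376; 0.99 and 0.259 without knockout 3). Reads of Serpina3f and Serpina3g, of the Serpinb6 and Serpinb9 families and of the granzymes may be shared between near-identical copies, so their split is uncertain, and Gzmk overlaps Esm1 in the annotation. Among 37 tested genes of effector and memory T cells, 16 rose and 1 fell in Mettl3 knockouts (10 and 5 without knockout 3), 2 rose in Nudt21 knockouts (23 rose and 2 fell without Mettl3 knockout 3), and 15 rose and 7 fell with activation (21 and 11 without Mettl3 knockout 3, where 44.6% of all tested genes rose and 36.4% fell). Against the shares over all tested genes given above for the granule genes, the 2 of 37 in Nudt21 knockouts lay below 8.73%, and the 15 of 37 with activation lay near 43.6%.

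Transcription factors of effector T cells differed among themselves. Bhlhe40 was at 1.04 to 1.48 FPKM in resting wild types of the Mettl3 set, at 8.34 and 26.2 FPKM in the Mettl3 knockouts, at 5.67 and 5.15 FPKM in the Nudt21 knockouts and at 129 to 143 FPKM after activation. It rose by 5.90 with activation, 2.79 in Mettl3 knockouts and 1.54 in Nudt21 knockouts (limma adjusted p = 5.14e-08, 0.000494 and 0.0132), and by 2.02 in Mettl3 knockouts without knockout 3 (adjusted p = 3.03e-05). Prdm1 was at 1.10 to 1.72 FPKM in resting wild types of the Mettl3 set and at 3.74 and 5.28 FPKM in the Mettl3 knockouts, a rise of 1.20 (limma adjusted p = 0.000633; 1 and 0.0019 without knockout 3). With activation it fell by 0.85 (limma adjusted p = 0.000206). Eomes, a T-box factor of cytotoxic and memory cells, was at 3.70 and 24.2 FPKM in the Mettl3 knockouts and at 0.896 to 1.89 FPKM in their wild types, a rise of 2.23 (limma adjusted p = 0.0148; 1.02 and 0.0272 without knockout 3). Tbx21, the T-box factor of type 1 helper cells, rose with activation (2.73, limma adjusted p = 0.00186), and was at 0.862 FPKM in Mettl3 knockout 1 and 8.84 FPKM in knockout 3 without passing (1.51, adjusted p = 0.116; 0.31 and 0.751 without knockout 3). The cytokine gene Ifng was at 1.29 and 9.50 FPKM in the Mettl3 knockouts, a rise of 2.03 (limma adjusted p = 0.025; 0.93 and 0.148 without knockout 3).

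The genes most like each member were found by Pearson's r of log2(FPKM + 1) over the 9 libraries at 0 h. These libraries share the groups and the outlying knockout 3, so r is a description. Gzmb was most like Setbp1 (r = 0.991), Bhlhe40 (0.988) and Il12rb1 (0.987), and Gzma like Serpina3g (0.993), Myo1f and Ehd1 (both 0.989). Prf1 was most like Knop1 (0.992), Zc3h12d (0.984) and Nifk (0.976), and Nkg7 like Slc15a3 (0.991), Trgj1 (0.987) and Ifi204 (0.986). Ccl5 was nearest to Gem and Myo1f (both 0.985), Plac8 to Rps27l (0.986), Serpinb9 to Tspan31 and Cmtm7 (both 0.989) and Serpinb6b to Agpat4 (0.98). Over all 12 libraries the nearest gene was Bhlhe40 for Gzmb (0.994), Capg for Serpinb6b (0.992), Cd8b1 for Plac8 (0.974) and S100a6 for Nkg7 (0.984).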

How the data were processed

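The table deposited by the authors gives FPKM per gene for 12 libraries and 32285 Ensembl genes, and every column belonged to 1 of these libraries. The submitters' processing notes name Bowtie and mm10 without saying what each was used for; how FPKM was computed, the annotation and the use of strand are not given in the sources used here. Per the labels' protocols, reads were paired-end. Whole reads could not be recovered from FPKM, so depth is unknown, counts were not modelled and no counting intervals are given; summed FPKM was 345621 to 386983 per library.

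Kept for testing were 12511 genes that reached 1 FPKM in 2 or more libraries (19774 did not). With limma 3.58.1 (R 4.3.3), log2(FPKM + 1) was modelled with 1 mean for each of 5 groups over all 12 libraries, with trended empirical Bayes moderation and 7 residual degrees of freedom. Benjamini-Hochberg adjustment ran over all tested genes, with a threshold of 0.05. The procedure was tested on simulated data. Fold changes on this scale understate the change of low genes. The members and lists were chosen with earlier results of these data known. Besides the members, up to 5 genes of each list and comparison were taken, by the largest change past the threshold with at least 1 FPKM in the higher group, as well as Srgn, Ctsc, Ifng, Fasl, Tbx21, Eomes and Prdm1; part of them is printed. Other cells were followed by 11 marker lists, one of them of CD4 T cells. Replicate numbers were checked for pairing: deviations of same-numbered wild types at 0 h and 48 h correlated at 0.261, 0.228 and 0.319, so these libraries may be paired by number. The main fit held no replicate block, and the activation results printed here do not use that pairing. A fit with the block, run as an alternative, changed no member's call with activation. Alternatives were another pseudocount, filter, scaling, library weights, fits to single comparisons, a replicate block and leaving out each library. Promoters came from a RefSeq table (GRCm38.p6). Plots were made in matplotlib 3.10.9 (Python 3.11.15).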

Additional observations from a re-analysis of the deposited data

Results flagged for a closer look

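The 9 results below were marked because the knockouts' changes differed in a test of the difference itself (Nudt21 effect minus Mettl3 effect, log2 scale, limma adjusted p under 0.05). Among the cytotoxic genes these were Gzmb (-2.39), Prf1 (-1.89) and Serpinb9 (-1.05). Of the granule machinery they were Lyst (-1.12), Vamp8 (-0.40) and Igf2r (0.49), the last of which was higher in both Nudt21 knockouts (26.6 and 24.5 FPKM) than in their wild types (19.5 and 19.6 FPKM). The other 3 were the serpin Serpini1 (-0.58) and the transcription factors Irf4 (-1.09) and Prdm1 (-1.30). The same test passed for 25.3% of all tested genes. The cytotoxic genes came from 9 tested members. The others came from 66 tested list genes, so their share lay below that of all genes. Irf4 was at 9.56 and 11.6 FPKM in the Mettl3 knockouts, against 3.35 to 3.77 FPKM in their resting wild types, and at 3.06 and 2.60 FPKM in the Nudt21 knockouts, against 2.13 and 2.25 FPKM. Without Mettl3 knockout 3, the differences for Irf4 (-0.96, adjusted p = 0.00262), Prdm1 (-1.10, adjusted p = 0.00394), Vamp8 (-0.42, 0.0156), Igf2r (0.42, 0.0128) and Serpini1 (-0.59, 0.0427) still passed with limma and that for Lyst did not (-0.76, adjusted p = 0.108).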

How the results depend on the processing

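The 45 fold changes of members gave 945 values under alternatives, of which 74 lost and 41 gained a call and 8 turned direction. Of all tested genes in the main fit, 28.9% passed in Mettl3 and 27.8% in Nudt21 knockouts. In the difference of the effects 25.3% passed, and between wild types 26%. With only the Mettl3 groups at 0 h fitted, 4.28% rose and 2.19% fell. For most other settings no share over all genes is given. Calls over all genes also moved with the setting, so the counts below are not read as results about the members. In Mettl3 knockouts 9 members passed, and 4 when only the compared groups were fitted; of the list genes 28 passed, against 12 without a filter on low values, 6 with only the compared groups, 15 with library weights, 18 with a replicate block, and 13 to 49 on leaving out single libraries. In Nudt21 knockouts 3 members passed, against 1 without a filter, 8 with only the compared groups, 7 with library weights, and 0 to 7 on leaving out single libraries; list genes numbered 10, against 46, 35 and 2 to 40 for the last 3 of these settings. In the difference of the effects 3 members passed (1 to 9 on leaving out single libraries) and 6 list genes (3 to 40). Between wild types 1 member passed, against 0 without a filter, 0 with quantile and 0 with median-ratio scaling, 2 with only the compared groups and 0 to 2 on leaving out single libraries; list genes numbered 5, against 15 with only the compared groups, 9 with library weights and 2 to 16 on leaving out single libraries.

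Leaving out single libraries turned these directions. Ccl5 with activation (-0.03) ranged from -0.24 to 0.28, above 0 without resting wild type 1 or without wild type 2 at 48 h (0.03). Serpinb9 in Nudt21 knockouts (0.08) ranged from -0.03, without Nudt21 knockout 1, to 0.19. In the difference of the effects, Gzma ranged from -2.78 to 0.64, Ccl5 from -2.41 to 0.51 and Serpina3g from -3.00 to 0.08, from the values without Mettl3 knockout 1 to those without knockout 3. Nkg7 there (0.31) ranged from -1.29 without Mettl3 knockout 1 to 1.92 without knockout 3, both past the threshold, and was at -0.01 without Nudt21 wild type 2. Calls over all genes moved by over 1.5 times in Mettl3 knockouts (3610; 809 with only the compared groups and 1094 with library weights), in Nudt21 knockouts (3475; 5540 with library weights, and 1617, 1427 and 1338 without Nudt21 wild type 1, wild type 2 or knockout 2), in the difference of the effects (3164; 2035 with library weights, and 1826, 1792 and 1745 without the same libraries) and between wild types (3251; 643 and 1455 without Nudt21 wild type 1 or 2).

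With a replicate block Nkg7 in Mettl3 knockouts (2.28, limma adjusted p = 0.0693), Gzma and Nkg7 in Nudt21 knockouts (0.0618 and 0.0506) and Gzmb in the difference (-2.26, 0.0543) lost their calls, and Prf1 in Nudt21 knockouts gained one (0.0212). The knockouts share only 2 numbers with their wild types, so the numbers are not taken to pair them. Crossing the numbers of the Nudt21 set, a setting chosen after seeing the data, gave 2 members and 12 list genes. Quantile scaling moved the median of all genes from 0.069 to -0.106 with activation, from 0.043 to -0.062 in Mettl3 knockouts and from -0.119 to 0.003 in the difference. It changed the split of higher to lower calls over all genes in Mettl3 knockouts from 2103 to 1507 into 1512 to 2537, in the difference from 931 to 2233 into 1141 to 1072, and between wild types from 2337 to 914 into 1030 to 1224. Median-ratio scaling gave 1693 to 1584 in Nudt21 knockouts, in place of 1092 to 2383, 1457 to 1441 in the difference and 1342 to 1409 between wild types. The causes of these changes were not tested. FPKM without counts gives no limit of detection for Gzmk and other low genes.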

Other observations

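The activated library of wild type 3 differed from the other activated libraries in genes of the type 1 helper programme. Tbx21 was at 22.2 FPKM there, against 5.27 and 5.90 FPKM in wild types 1 and 2 at 48 h, Ifng at 2.32 FPKM against 0.276 and 0.358 FPKM, and Serpina3f at 6.08 FPKM against 1.08 and 0.782 FPKM. Irf8, an interferon-regulated transcription factor, was at 163 FPKM, against 79.4 and 100 FPKM. Ly6c1, a surface protein of T cell subsets, was at 8.40 FPKM, against 0.764 and 0.868 FPKM, and at 71.6 to 86.2 FPKM in the resting wild types of that set. Gzmb and Serpina3g were also higher in that library than in its partners. With 3 libraries a group this was not tested.

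Ly6c1 and Ly6c2 are a pair of neighbouring paralogues, so reads may be shared between them and their split is uncertain. The difference of the knockout effects passed for neither gene (limma adjusted p = 0.228 for Ly6c1 and 0.863 for Ly6c2). In Nudt21 knockouts Ly6c1 did not pass (-0.18, limma adjusted p = 0.869). Ly6c1 was at 233 and 184 FPKM in Mettl3 knockouts 1 and 3, without passing the test (1.36, limma adjusted p = 0.108; 1.53 and 0.17 without knockout 3), and at 60.6 and 82 FPKM in the Nudt21 knockouts, against 81.1 and 78.4 FPKM in their wild types. Ly6c2 was at 14.9 and 121 FPKM in the Mettl3 knockouts (a rise of 2.54, limma adjusted p = 0.0263; 1.08 and 0.145 without knockout 3) and at 54.1 and 52.2 FPKM in the Nudt21 knockouts, against 11.9 and 9.31 FPKM in their wild types (2.23, limma adjusted p = 0.0609; 0.00277 without Mettl3 knockout 3). Itgae, the integrin of tissue-resident T cells, was at 1.39 and 6.18 FPKM in Mettl3 knockouts 1 and 3, against 0.522 to 0.612 FPKM in their resting wild types, a rise of 1.39 (limma adjusted p = 0.0157) that was 0.60 without knockout 3 (0.0118). In Nudt21 knockouts Itgae rose by 1.91 (limma adjusted p = 0.00636).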
